A study of Mus musculus with 11 samples.

Results

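Vip Adarb2 inhibitory interneurons were described in single-nucleus RNA sequencing (snRNA-seq) of frozen mouse cortex from 11 mice, 1 library per mouse. The labels give the mice as female, whereas the study's methods state that RNA-seq used males, and the sex was not settled here. A nucleus was taken as a member when it held 2 or more UMIs of Vip, 5 or more of Adarb2, 2 or more of Gad1 and Gad2 together and at most 1 of Slc17a7, with 300 to 8000 genes and at most 5% of UMIs in mitochondrial genes. UMIs are molecular tags that let reads copied from a single captured RNA be counted once. The rule chose 541 of the 112539 nuclei within these quality limits, and of 20590 nuclei that passed the Gad1, Gad2 and Slc17a7 limits, called GABA nuclei here. The members were thus chosen on their own measured counts of 5 genes, which were not tested.

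The mice formed 4 genotype groups. Ikbkb+/+ mice (n = 4, 9.8 to 10.85 months) carried no tau transgene, and Ikbkb+/+;P301S+ mice (n = 3, 9.15 to 10.75 months) carried PS19, a transgene that makes human P301S tau. Ikbkb-/-;P301S+ mice (n = 2, 8.39 and 9.15 months) carried P301S together with floxed Ikbkb and Cx3cr1CreERT2, and IkbkbCA;P301S+ mice (n = 2, 10.85 and 9.8 months) carried P301S together with a Cre-dependent, constitutively active IKKβ and the same Cre. Ikbkb encodes IKKβ, a kinase that activates NF-κB signalling. Per the study's methods, all mice received tamoxifen at 2.5 to 3 months, and the groups with intact IKKβ came from the floxed and the active IKKβ breeding lines and carried the floxed or Cre-dependent allele without Cre. The Cre is active in microglia and other cells that use Cx3cr1, and is not known for activity in cortical neurons. Recombination in the interneurons was not measured here. The effects of the Cre allele and of IKKβ cannot be told apart in these groups, since no Cre-bearing mouse with intact IKKβ was analysed here.

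Vip interneurons are GABA-releasing neurons of the cortex that arise in the caudal ganglionic eminence of the embryo and are known for inhibiting other interneurons, above all those with somatostatin, so that their firing frees pyramidal cells from inhibition. They respond to acetylcholine and serotonin, and fall into subtypes that carry calretinin (Calb2), cholecystokinin (Cck), choline acetyltransferase (Chat) or corticotropin-releasing hormone (Crh). Vip encodes vasoactive intestinal peptide, Adarb2 an RNA-editing enzyme homologue that marks interneurons of caudal origin, and Gad1 and Gad2 the enzymes that make GABA. Slc17a7 encodes the vesicular glutamate transporter of cortical excitatory neurons.

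The gene that defines the class, Vip (ENSMUSG00000019772), lies on the plus strand of chromosome 10 at 5639218 to 5647617 in GRCm38. The last 100 bases before its annotated start, chr10:5639118-5639217 on the plus strand of GRCm38.p6 as given by RefSeq, are printed because this stretch carries the cAMP response element for which the Vip promoter is known. Capitals mark TGACGTC, its core, and the first capital lies 79 bases before the start.

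Vip promoter: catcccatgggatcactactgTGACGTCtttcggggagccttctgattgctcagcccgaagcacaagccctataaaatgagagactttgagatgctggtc

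The letters TATAAA begin 30 bases before the start in the same stretch. Over 32851 RefSeq promoters of 300 bases (250 before to 50 after a start), TGACGTC or its reverse complement GACGTCA was present in 1053, or 3.21%. Of the 108 genes described further on as higher in Vip Adarb2 nuclei than in each other interneuron class, 79 were matched by symbol to 103 promoters, of which 3 (2.91%) held the motif, in Grpr, Hs3st2 and Pcsk1. A match of letters is a description of the window and not a binding site.

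Members held a median of 4 UMIs of Vip (range 2 to 39) and of 117 of Adarb2 (range 5 to 837). The median per mouse lay between 3 and 5.5 UMIs for Vip and between 87 and 148.5 for Adarb2. The threshold on Vip passed through a continuum, since 129 members held exactly 2 UMIs of Vip and a further 207 nuclei met every other limit with 1 UMI. Summed over the 11 mice, nuclei with 1 UMI of Vip held 202 CPM (counts scaled to the library total) of Prox1, against 290 CPM in members with 2 UMIs, 296 CPM in members with 5 or more, and 43.7 CPM in the 6365 nuclei with 0. Prox1 is a transcription factor that caudal-origin interneurons keep into adulthood. For Wnt5b, a secreted Wnt ligand, the same order of nuclei held 99.0, 245, 376 and 16.2 CPM. In contrast, Meis2, a transcription factor of striatal and olfactory bulb neurons, stood at 470, 146, 76.4 and 1341 CPM, so that nuclei just outside the threshold lay between the members and the nuclei without Vip.

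The libraries held 114118 barcodes (7500 to 12315 per mouse) and totals of 72007219 to 93205362 UMIs. Members had a median of 7562 UMIs (1712 to 28803) and 2766 genes, with a median per mouse of 5972 to 10466.5 UMIs, and contributed 179182 to 703126 UMIs per mouse to the sums tested. Of 112502 distinct barcode sequences, 1599 occurred in 2 or more libraries. Among the barcodes of members, 0 belonged to members of 2 or more libraries. Whether any of the 1599 belonged to a member was not counted. Doublets were kept, because the rule does not remove them, and a caller marked 35 of the 541 members.

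Markers that the rule did not use matched the label in part. Prox1 was present in every mouse at 261 to 388 CPM and Npas1, another transcription factor of caudal-origin interneurons, at 83.5 to 135 CPM. Lhx6, the transcription factor of interneurons from the medial ganglionic eminence, had 12 UMIs in all members together, 16 members held a UMI of Sst and 4 one of Pvalb. Over the whole list of 16 medial ganglionic eminence markers the summed level in members was 7886 to 10521 CPM, against 3100 to 7185 CPM in other GABA nuclei. Erbb4, a neuregulin receptor that interneurons of both origins carry, supplied 35749 of the members' 41517 UMIs of these markers, of which 14 were counted and 0 were at 0. Of 10 excitatory neuron markers none was at 0 in members and their sum ran from 593 to 1001 CPM (785 to 1027 CPM in other GABA nuclei), with 5 UMIs of Slc17a6 and 9 of Tbr1 in all. Striatal projection neuron markers summed to 61.9 to 279 CPM in members against 1101 to 2770 CPM in the other GABA nuclei. Of all GABA nuclei, members included, 14% to 40.6% per mouse held 2 or more UMIs of Drd1 and Drd2. Olfactory or subpallial interneuron markers summed to 141 to 426 CPM in members and to 1060 to 2333 CPM in other GABA nuclei, with Th and Trh at 0.

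RNA of glial markers was low in most members but uneven between mice. Astrocyte markers, none of 8 at 0, summed to 276, 727, 362 and 862 CPM in the 4 Ikbkb+/+ mice (replicates 1 to 4), to 323, 313 and 326 CPM in Ikbkb+/+;P301S+, to 382 and 906 CPM in Ikbkb-/-;P301S+ and to 316 and 330 CPM in IkbkbCA;P301S+. Thus 3 libraries stood high, 2 of them without the tau transgene. Slc1a2 supplied 1389 and Gpc5 685 of the members' 2287 UMIs of these markers, against 12 of Aqp4, 17 of Gja1 and 5 of Gfap. Slc1a2 alone stood at 252 ± 14.1 CPM (SD) in Ikbkb+/+;P301S+ and 251 ± 13.5 CPM in IkbkbCA;P301S+. How much of this RNA came from glia was not tested. A group of 20 members held 20 or more UMIs of glial and vascular markers, with 6 in Ikbkb+/+ replicate 2, 4 in replicate 4, 3 in Ikbkb-/-;P301S+ replicate 2 and at most 2 in any other mouse. Oligodendrocyte markers ranged from 87.4 to 363 CPM, microglia markers from 11.2 to 67.5 CPM with Siglech at 0, oligodendrocyte precursor markers from 5.11 to 38.5 CPM, and vascular markers from 3.43 to 12.8 CPM with Cldn5, Vtn and Col1a1 at 0.

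To find what the members share beyond the 5 genes of the rule, their counts were summed per mouse and set against those of 3 other interneuron classes of the same mice, with the mouse as a block. Lamp5 Adarb2 nuclei (n = 325) held 5 or more UMIs of Adarb2, 2 or more of Lamp5 and 0 of Vip. Sst nuclei (n = 349) held 5 or more of Sst and at most 1 of Pvalb, and Pvalb nuclei (n = 283) held 2 or more of Pvalb and at most 1 of Sst, both with 0 of Vip and at most 1 of Adarb2. These classes were deeper than the members, with medians per mouse of 8037 to 13716.5, 8266 to 14359 and 9829 to 15627 UMIs per nucleus. A gene was called at an adjusted p under 0.05 (edgeR's quasi-likelihood test, Benjamini-Hochberg over 5902 genes) and a difference over 1 on the log2 scale, that is, over 2-fold. The genes that define any of the 4 classes were left out.

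Against Lamp5 Adarb2 nuclei 297 genes were higher in Vip Adarb2 nuclei (5.03% of genes tested) and 285 lower (4.83%). Against Sst nuclei 311 were higher (5.27%) and 280 lower (4.74%), and against Pvalb nuclei 529 were higher (8.96%) and 416 lower (7.05%). All 3 comparisons called 108 genes higher (1.83%) and 71 lower (1.2%). With the nuclei of all classes thinned to 3000 UMIs, and shallower nuclei left out, 47 were higher and 51 lower. Without the filter on low counts 239 were higher and 93 lower. For each of the 20 genes named next as higher, the level in Vip Adarb2 nuclei was above that in all 3 other classes in 11 of 11 mice, and the largest of their adjusted p-values was 6.24e-10 (edgeR). The genes were picked by their differences in these same mice, so both values follow in part from the choice and are no separate support. Tac2 and Grpr, with at most 5 UMIs in each other class, passed the filter on low counts through the members. Levels of the 20 genes are given as the lowest, the median and the highest of the 11 mice.

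Among peptides and secreted ligands, Tac2, the precursor of neurokinin B, stood at 28.8, 46.1 and 67.1 CPM. It had 221 UMIs in the members, 4 in Lamp5 Adarb2, 2 in Sst and 0 in Pvalb nuclei. This is 5.15 ± 0.35 (SE) higher than Lamp5 Adarb2 on the log2 scale, 97.1-fold higher than Sst (95% exact counting interval 26.6 to 807), and at least 63.7-fold higher than Pvalb, counted against a floor of 3 UMIs over the class. Such intervals and floors cover counting error only. Cxcl14, a chemokine, stood at 34.7, 61.1 and 107 CPM, with 276 UMIs in the members and 26, 3 and 1 in Lamp5 Adarb2, Sst and Pvalb nuclei. Wnt5b reached 204, 320 and 522 CPM, and was higher by 4.47 ± 0.19, 4.66 ± 0.20 and 3.75 ± 0.17 than in Lamp5 Adarb2, Sst and Pvalb nuclei on the log2 scale. Angpt1, the ligand of the Tie2 receptor, stood at 51.7, 105 and 125 CPM and was higher by 3.64 ± 0.30, 3.59 ± 0.29 and 4.13 ± 0.31. Sema5b, a semaphorin that guides axons, stood at 200, 313 and 423 CPM, higher by 2.49 ± 0.21, 5.46 ± 0.31 and 4.61 ± 0.28. In each mouse the members stood above the Sst and Pvalb nuclei for all of these ligands. Fbln2, an extracellular matrix protein, completed the secreted products at 85.0, 92.0 and 135 CPM, with 449 UMIs in members and 3, 17 and 1 in the other classes.

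Receptors and channels formed the next group. Grpr, the receptor of gastrin-releasing peptide, stood at 32.8, 57.8 and 69.6 CPM. Its 238 UMIs in members compare with 0 in Lamp5 Adarb2, 5 in Sst and 0 in Pvalb nuclei, at least 62.3-fold and at least 68.6-fold higher than in the Lamp5 Adarb2 and Pvalb classes. Npy1r, a receptor of neuropeptide Y, stood at 34.7, 53.7 and 76.5 CPM and was higher by 3.00 ± 0.25 than in Lamp5 Adarb2 and by 4.57 ± 0.32 than in Sst nuclei on the log2 scale, with 1 UMI in Pvalb nuclei. The acid-sensing channel Asic1 stood at 76.1, 127 and 170 CPM and was higher by 2.43 ± 0.16, 2.42 ± 0.16 and 2.495 ± 0.15 than in Lamp5 Adarb2, Sst and Pvalb nuclei. Asic4 of the same family (39.2, 57.9 and 76.9 CPM) was higher by 2.49 ± 0.28, 5.16 ± 0.41 and 4.76 ± 0.38. The glycine receptor subunit Glra2 (101, 132 and 220 CPM) was higher by 2.34 ± 0.19, 2.39 ± 0.19 and 2.54 ± 0.19. Ptprz1, a receptor-type tyrosine phosphatase, stood at 421, 606 and 752 CPM and was higher by 2.42 ± 0.18, 2.60 ± 0.19 and 3.67 ± 0.21.

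Of the intracellular and transcriptional genes, Prox1os, a transcript antisense to Prox1, stood at 76.9, 113 and 162 CPM and was higher by 2.72 ± 0.20 than in Lamp5 Adarb2, 5.73 ± 0.29 than in Sst and 4.96 ± 0.26 than in Pvalb nuclei. Whether strand was used in counting is not given in the sources used here, so that reads of Prox1 and Prox1os may be mixed. Dpf3, a subunit of the BAF chromatin remodelling complex, stood at 119, 160 and 197 CPM and Rgs12, a regulator of G-protein signalling, at 141, 167 and 235 CPM. Rgs12 was higher by 2.57 ± 0.16 than in Lamp5 Adarb2 and by 6.23 ± 0.25 than in Pvalb nuclei. The other 5 named genes were Cp, a copper-bound ferroxidase, Bcar3, a signalling adaptor, Cpne2, a calcium-dependent lipid-binding protein, Plpp4, a phospholipid phosphatase, and Mob3b of the MOB family, with medians of 68.0, 83.4, 79.1, 198 and 86.8 CPM. Bcar3 ranged from 57.9 to 225 CPM between mice and exceeded every other class in each mouse.

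The 10 genes named as lower were below all 3 classes in 11 of 11 mice, with adjusted p-values up to 1.24e-09 (edgeR). They too were picked by their differences in these mice, so this follows in part from the choice. Nxph1, a secreted ligand of α-neurexins, stood at 67.1, 146 and 235 CPM in Vip Adarb2 nuclei against medians of 1994, 3613 and 2230 CPM in Lamp5 Adarb2, Sst and Pvalb nuclei. The difference was -3.92 ± 0.14, -4.53 ± 0.14 and -3.95 ± 0.14 on the log2 scale. Ptprm, a phosphatase of cell adhesion, stood at 34.7, 125 and 186 CPM against medians of 2579, 1730 and 1486 CPM. The highest mouse for Vip Adarb2 nuclei thus lay far under the lowest mouse of any other class, which was 1498 CPM for Nxph1 and 1312 CPM for Ptprm. Kcns3, a modifier subunit of voltage-gated potassium channels, was lower by -3.36 ± 0.27, -2.54 ± 0.30 and -3.36 ± 0.27, and the transcription factor Bcl11b by -3.25 ± 0.13, -2.21 ± 0.15 and -2.39 ± 0.14. Iqgap2, a scaffold protein, had medians of 27.3 CPM in members and 613 CPM in Pvalb nuclei. The others were the HMG-box genes Tox2 and Tox3, the actin-binding coronin Coro6, the small GTPase Rerg and Mpped1.

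**Figure D1:**
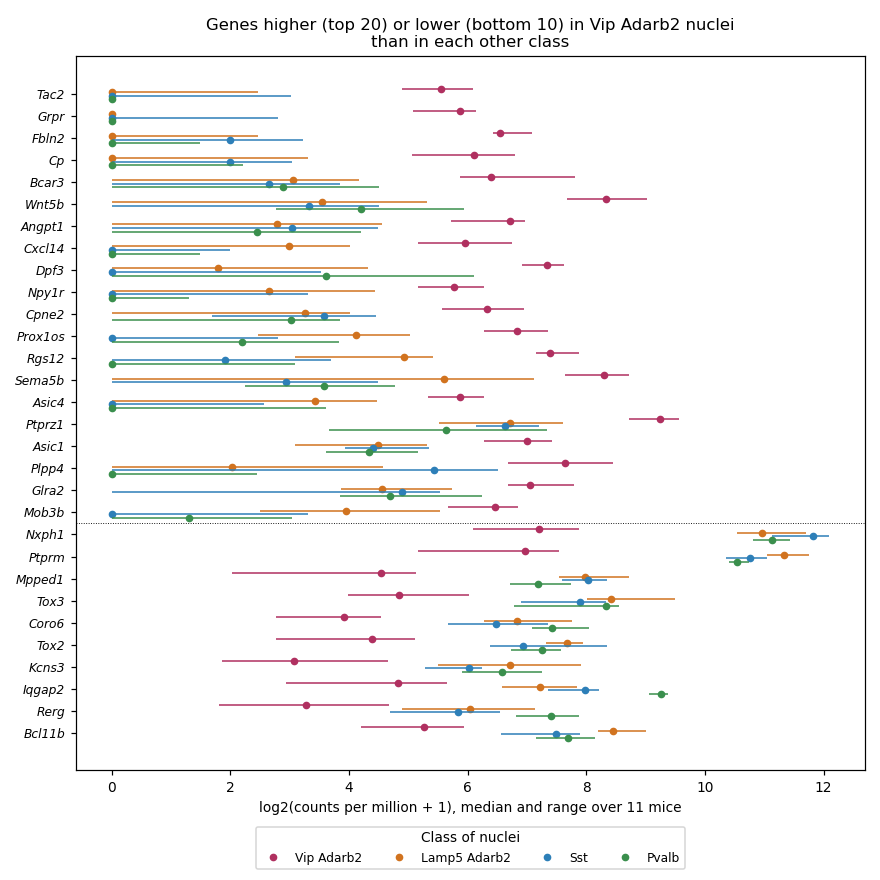
The 20 genes named as higher and the 10 named as lower in Vip Adarb2 nuclei, one per row, with log2(CPM + 1) on the horizontal axis. Points are the median over 11 mice of the summed nuclei of each of 4 classes and bars the lowest to highest mouse. Tac2 and Grpr lie at or near 0 in the other classes, and Nxph1 and Ptprm show the widest gap in the other direction.

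Listed genes of the caudal ganglionic eminence, most of them transcription factors, were mostly higher in members than in Sst and Pvalb nuclei, which arise in the medial eminence. The list also holds Egfr, a receptor, and Dlx6os1, a non-coding RNA. Of 20 listed genes 15 were tested, and 5 were higher and 1 lower than in Lamp5 Adarb2, 11 higher and 1 lower than in Sst, and 10 higher and 1 lower than in Pvalb nuclei. Their median differences were 0.45, 1.37 and 2.14 on the log2 scale, where the medians of all genes tested were 0.01, 0.00 and 0.00. Prox1 was higher by 1.68 ± 0.13, 5.92 ± 0.22 and 4.83 ± 0.19 and Npas1 by 4.30 ± 0.30, 1.04 ± 0.19 and 4.87 ± 0.32 than in Lamp5 Adarb2, Sst and Pvalb nuclei. Npas3, its relative, had 3299 to 4879 CPM and was higher in all 3 comparisons, as were Nr2f2 and Dlx1. Egfr, the epidermal growth factor receptor, was higher by 6.55 ± 0.31 than in Sst and 4.599 ± 0.25 than in Pvalb nuclei, and differed from Lamp5 Adarb2 by 0.40 ± 0.17 (adjusted p = 0.0768, edgeR). Nfib, a transcription factor, was lower than in Lamp5 Adarb2 by -1.06 ± 0.13 and higher than in Sst by 2.89 ± 0.16.

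Of 16 medial ganglionic eminence markers 9 were tested, of which 2 were higher and 1 lower than in Lamp5 Adarb2, 1 higher and 6 lower than in Sst, and 1 higher and 7 lower than in Pvalb nuclei (median 0.29, -2.92 and -1.70). Lhx6 was lower in all 3, by -1.62 ± 0.56, -5.07 ± 0.34 and -4.67 ± 0.35. Sox6, which acts after Lhx6 in these cells, stood at 11.6 to 76.0 CPM in members against medians of 1172 CPM in Sst and 980 CPM in Pvalb nuclei. A few listed genes were higher in members. Elfn1, a synaptic adhesion protein that shapes excitatory input onto somatostatin cells, was higher by 4.94 ± 0.28 than in Lamp5 Adarb2 and by 4.49 ± 0.26 than in Pvalb nuclei, with 157 to 314 CPM in members. Kcnc2 was higher than in Lamp5 Adarb2 by 1.40 ± 0.12 and Erbb4 than in Sst nuclei by 2.28 ± 0.10.

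Of 23 neuropeptide genes 8 were tested, and 5 were higher and 1 lower than in Lamp5 Adarb2, 3 and 1 against Sst, and 6 and 0 against Pvalb nuclei (medians 1.36, 0.17 and 1.76). Igf1, insulin-like growth factor 1, stood at 374, 493 and 880 CPM and was higher by 1.70 ± 0.12, 2.63 ± 0.14 and 6.99 ± 0.23. Penk, proenkephalin, stood at 30.4, 38.3 and 86.8 CPM and was higher by 2.43 ± 0.35, 2.13 ± 0.33 and 4.23 ± 0.45. Npy, neuropeptide Y, was lower than in Lamp5 Adarb2 by -2.34 ± 0.23 and than in Sst nuclei by -2.71 ± 0.22. Of 25 neuropeptide receptors 8 were tested, with 2 higher and 1 lower, 3 and 2, and 4 and 1 (medians -0.27, 0.32 and 1.44). Hcrtr2, an orexin receptor, was 5.10 ± 0.46 higher than in Pvalb nuclei, while Tacr1, the substance P receptor, was lower than in Sst nuclei by -4.81 ± 0.39. The 2 receptors of vasoactive intestinal peptide, Vipr1 and Vipr2, did not pass the filter on low counts of this comparison.

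Serotonin and acetylcholine receptors split in direction. Of 25 genes 9 were tested, with 3 higher and 3 lower than in Lamp5 Adarb2, 3 and 2 against Sst, and 5 and 2 against Pvalb nuclei (medians -0.31, -0.33 and 1.43). The serotonin receptors Htr2c (150 to 466 CPM) and Htr4 (120, 164 and 231 CPM) were higher in all 3 comparisons, Htr2c by 2.25 ± 0.25, 1.51 ± 0.23 and 2.45 ± 0.26 and Htr4 by 1.49 ± 0.17, 2.66 ± 0.20 and 1.75 ± 0.18. Htr2a, the excitatory serotonin receptor of pyramidal cells, and the muscarinic receptor Chrm2 were lower in all 3, Htr2a by -2.94 ± 0.23, -1.54 ± 0.27 and -1.92 ± 0.26. Chrm3, a muscarinic receptor coupled to calcium release, stood at 944 to 1597 CPM, higher by 1.99 ± 0.12 than in Lamp5 Adarb2 and by 1.83 ± 0.12 than in Pvalb nuclei. Htr3a, the serotonin-gated channel by which this lineage is known, did not pass the filter on low counts and is described by detection instead.

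Glutamate receptors were tested for 22 of 23 genes, with 5 higher and 4 lower than in Lamp5 Adarb2, 2 and 6 against Sst, and 8 and 3 against Pvalb nuclei (medians 0.15, 0.03 and 0.54). Grm8, a presynaptic metabotropic receptor, was higher by 1.97 ± 0.22, 1.59 ± 0.21 and 3.72 ± 0.25 and the kainate receptor subunit Grik4 by 1.41 ± 0.12, 1.83 ± 0.13 and 3.06 ± 0.14. The AMPA receptor subunit Gria3 was lower in all 3, by -1.22 ± 0.09, -1.70 ± 0.09 and -1.73 ± 0.09. Potassium channels (25 of 27 tested) gave 4 higher and 5 lower, 7 and 4, and 7 and 10 (medians -0.14, 0.24 and -0.19). Kcnt2, a sodium-activated potassium channel, stood at 849, 1201 and 1353 CPM and was higher by 2.19 ± 0.11, 2.91 ± 0.12 and 4.81 ± 0.14, whereas its relative Kcnt1 was lower by -1.36 ± 0.16, -1.39 ± 0.16 and -1.44 ± 0.16. The fast-spiking channels Kcnc1 and Kcnc2 were lower than in Pvalb nuclei by -1.41 ± 0.10 and -1.70 ± 0.11.

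GABA receptors (13 of 14 tested) gave 0 higher and 4 lower than in Lamp5 Adarb2, 3 and 0 against Sst, and 2 and 1 against Pvalb nuclei (medians -0.27, 0.27 and -0.47). The subunit of extrasynaptic receptors Gabrd was lower than in Lamp5 Adarb2 by -3.02 ± 0.29 and than in Pvalb nuclei by -3.91 ± 0.25. For GABA synthesis and transport (8 of 10 tested) the counts were 0 and 1, 1 and 0, and 1 and 0 (medians 0.01, -0.07 and -0.24). Presynaptic and exocytosis genes (23 of 27 tested) gave 4 and 2, 3 and 1, and 5 and 2 (medians -0.13, -0.02 and -0.06). The complexin Cplx2, a regulator of vesicle fusion, was higher by 1.36 ± 0.17, 1.15 ± 0.16 and 4.03 ± 0.24. Syt2, the calcium sensor of fast-spiking terminals, was lower than in Pvalb nuclei by -5.23 ± 0.22.

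Of 29 activity-induced genes 8 were tested, of which 4, 2 and 5 were higher and 0 lower (medians 0.67, 0.43 and 1.42). Lists share genes, so their counts are not separate results. Igf1, given above with the neuropeptides, is also among these activity-induced genes, and Camk2a is in both the tau-related and the excitatory lists. Egr1, an immediate early transcription factor, stood at 8.70, 47.1 and 86.8 CPM and was higher by 1.13 ± 0.23, 1.02 ± 0.22 and 2.84 ± 0.29. Of 30 NF-κB pathway genes and targets 7 were tested, with 2, 1 and 1 higher and 0 lower (medians 0.04, 0.16 and 0.02), and Traf6, a signalling adaptor upstream of IKKβ, was higher by 1.49 ± 0.23, 1.86 ± 0.23 and 1.37 ± 0.22. Of 22 genes for tau, its kinases and the transgene's promoter 17 were tested, and 0, 1 and 0 were higher, the 1 being Camk2a against Sst nuclei. Chaperone and stress genes (8 of 20 tested) gave 0, 1 and 1 higher, and 0 of the 1 interferon response gene tested was called. Of other cell types' markers, 3 of 8 astrocyte genes were tested and Slc1a2, a glutamate transporter of astrocytes, was higher than in Sst nuclei by 2.14 ± 0.31 and than in Pvalb nuclei by 1.29 ± 0.28. The part of the glial RNA in that difference was not tested. Without the members rich in glial markers 101 genes were higher and 69 lower than in all 3 classes, of which 98 and 66 were among the 108 and 71. Oligodendrocyte markers had 0 of 3 tested genes called, and no microglia, oligodendrocyte precursor or vascular marker passed the filter. Excitatory markers (5 tested) gave 0 and 1, 1 and 1, and 0 and 1 higher and lower. Striatal markers (2 tested) gave 0 and 2, 0 and 1, and 1 and 0. Olfactory or subpallial markers (3 tested) gave 0 and 2, 1 and 0, and 0 and 0.

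**Figure D2:**
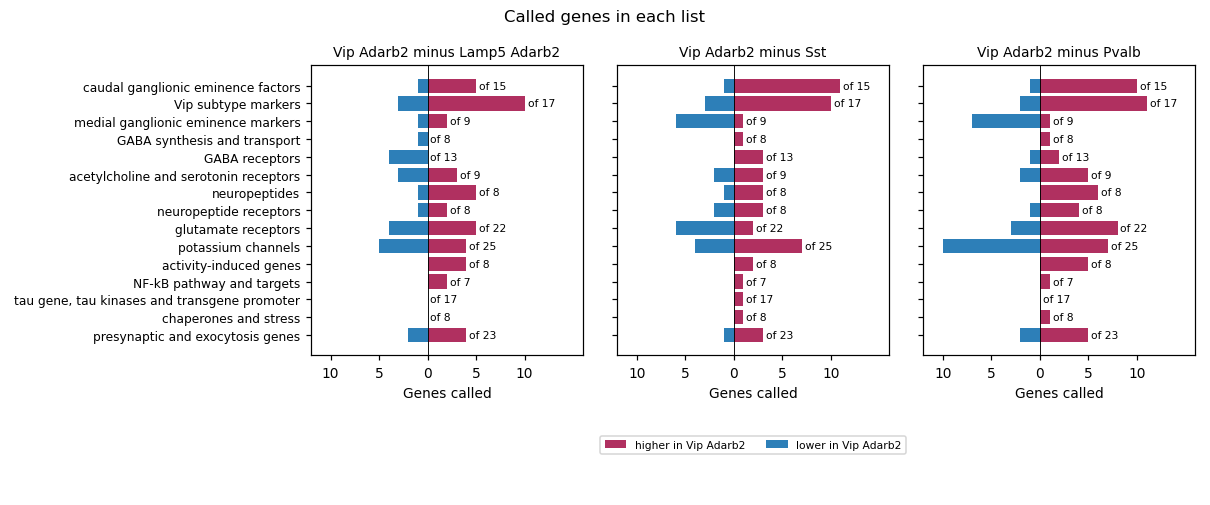
Number of genes of each list called higher (to the right of 0) and lower (to the left) in Vip Adarb2 nuclei than in Lamp5 Adarb2, Sst and Pvalb nuclei, one panel per comparison, with lists as rows. Caudal ganglionic eminence factors reach 11 higher against Sst, and potassium channels 10 lower against Pvalb nuclei. Some genes are shared between lists.

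Of 38 Vip subtype markers 17 passed the filter on low counts, with 10 higher and 3 lower than in Lamp5 Adarb2, 10 and 3 against Sst, and 11 and 2 against Pvalb nuclei (medians 1.75, 2.13 and 2.30). Because many others were too sparse for that test, subtype genes were also read as the share of members with a UMI, after thinning each nucleus to 3000 UMIs, which left 534 members. Pvalb nuclei, which should lack these genes, were thinned the same way (n = 282) as a background for free RNA, and 0 of 282 allows, by a floor of 3 counts, up to 1.06% of nuclei with a UMI (the Wilson interval reaches 1.34%). Before thinning the median depth per mouse was 5972 to 10466.5 UMIs in members and 9829 to 15627 UMIs in Pvalb nuclei. Synpr, a synaptic vesicle protein, was detected in 97.4% of members (95% Wilson interval 95.6 to 98.4) against 5.67% of Pvalb nuclei, and Cnr1, the cannabinoid receptor, in 51.3% (47.1 to 55.5) against 5.67%. Tac2 was detected in 14.6% of members (11.9 to 17.9), Penk in 10.9% (8.50 to 13.8), Crh in 9.74% (7.50 to 12.5), Htr3a in 9.36% (7.17 to 12.1), Cck in 9.18% (7.01 to 11.9), Chat in 8.43% (6.36 to 11.1) and Calb2 in 6.37% (4.59 to 8.77). In Pvalb nuclei Tac2, Crh, Htr3a, Chat and Calb2 were at 0 of 282, Penk at 0.355% and Cck at 2.13%. Without thinning these shares in members were 26.4%, 22.4%, 19.6%, 19.4%, 17.2%, 15.9% and 12.6%, in the same order of genes. In unthinned Pvalb nuclei Cck was at 10.6%, Penk at 2.12%, and Tac2, Crh, Htr3a, Chat and Calb2 at 0%.

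The shares of subtype genes varied between mice by several fold. Crh was detected in 2.13% to 23.1% of members of a mouse, Cck in 3.23% to 21.4%, Chat in 3.85% to 19.0% and Calb2 in 2.38% to 16.2%, with 29 to 78 members per mouse. Slc5a7, the choline transporter of cholinergic cells, was found in 5.81%, while Slc18a3, the vesicular acetylcholine transporter, was found in 0 of 534, which by a floor of 3 counts allows up to 0.562% of nuclei with a UMI at this depth and sets no limit on nuclei that express it. Mybpc1 and Htr1f, listed as subtype markers, were detected more often in Pvalb nuclei (21.99% and 27.3%) than in members (9.55% and 12.7%). Reln, an extracellular matrix glycoprotein, was alike at 15.2% and 14.5%. Thus these 3 genes did not mark the members against that class.

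Most members showed few subtype genes at this depth. Of the 534, 256 (47.9%) held a UMI of 0 of 8 subtype genes, 183 (34.3%) of 1, and 75 (14%) of 2. A further 17 held 3, 2 held 4 and 1 held 5. Members with Cck held Cnr1 in 38 of 49 nuclei (77.6%), against 236 of 485 without Cck (48.7%), and Npas1 in 26 (53.1%) against 115 (23.7%). Cck basket cells are known for presynaptic Cnr1. Members with Crh held Tac2 in 17 of 52 (32.7%) against 61 of 482 (12.7%), and those with Chat held Ptprt, a receptor phosphatase, in 31 of 45 (68.9%) against 199 of 489 (40.7%). Cck was found in 1 of 34 members with Calb2 (2.94%) against 48 of 500 without (9.6%), too few nuclei to show that the 2 genes exclude each other. These pairs come from nuclei that share libraries and depth, and are given as a description without a test.

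**Figure D3:**
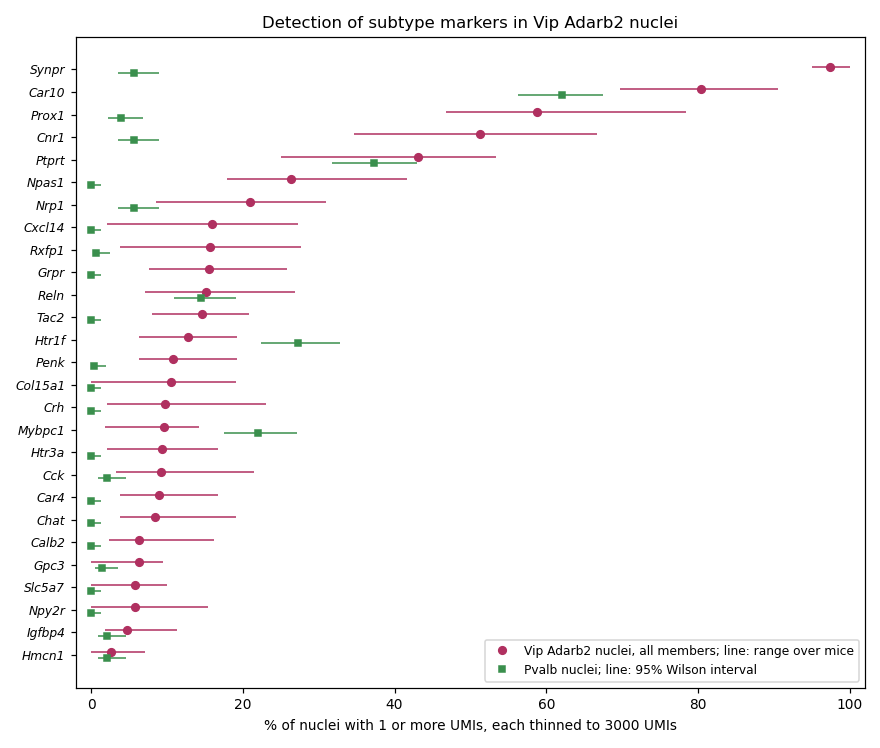
Share of nuclei with 1 or more UMIs of each subtype marker after thinning to 3000 UMIs, with genes as rows and percent on the horizontal axis. Points are the 534 members, with lines from the lowest to the highest mouse, beside the 282 Pvalb nuclei with 95% Wilson intervals. Synpr and Cnr1 stand apart at 97.4% and 51.3%, and most peptide markers lie under 16% in members and at or near 0% in Pvalb nuclei.

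The number of Vip Adarb2 nuclei was then compared between genotypes, over mice. As a share of GABA nuclei the members made up 2.44%, 4.38%, 5.46% and 2.13% in Ikbkb+/+ replicates 1 to 4, 2.57%, 1.19% and 1.78% in Ikbkb+/+;P301S+, 3.39% and 3.31% in Ikbkb-/-;P301S+, and 1.957% and 2.36% in IkbkbCA;P301S+. The Ikbkb+/+ and P301S mice overlapped, while both Ikbkb-/-;P301S+ mice lay above the 3 Ikbkb+/+;P301S+ mice. The means were 3.604% ± 1.59 (SD, n = 4) without and 1.85% ± 0.69 (n = 3) with P301S. The difference of -1.76 percentage points did not pass (exact permutation test, two-sided, p = 0.2, adjusted p = 0.267 over 4 comparisons). Ikbkb-/-;P301S+ mice were 1.499 points above Ikbkb+/+;P301S+ (3.35% ± 0.059, n = 2, exact p = 0.2, adjusted p = 0.267) and IkbkbCA;P301S+ mice 0.31 points above (2.16% ± 0.29, n = 2, exact p = 0.7, adjusted p = 0.7). An exact permutation test of 2 against 3 mice cannot go below p = 0.1. All 7 P301S+ mice together were 1.24 points below the 4 Ikbkb+/+ mice (2.37% ± 0.80, exact permutation p = 0.112, adjusted p = 0.267).

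Within the floxed line the P301S mice without Cre (2.57% and 1.19%) overlapped their controls (2.44% and 4.38%), and within the active line the 1 such mouse (1.78%) lay below its 2 controls (5.46% and 2.13%). The share of Drd1 or Drd2 nuclei among the GABA nuclei ranged from 14% to 40.6%, with IkbkbCA;P301S+ replicate 1 highest. GABA nuclei without Drd1 or Drd2 were then taken as the whole, a choice made after seeing the data. The differences were -2.05 points for P301S and 1.91 for the knockout (exact permutation p = 0.2 each). They were 0.73 for active IKKβ and -1.29 for all tau (exact permutation p = 0.3 and 0.17). Of the nuclei of all 4 interneuron classes, the members made up 28.3%, 45.1%, 52.5% and 47.3% in Ikbkb+/+, 42.7%, 32.6% and 23.2% in Ikbkb+/+;P301S+, 38.7% and 37.2% in Ikbkb-/-;P301S+, and 28.6% in both IkbkbCA;P301S+ mice. By this measure, chosen after seeing the data, the 7 P301S+ mice lay 10.2 points below Ikbkb+/+ (exact permutation p = 0.0788, adjusted p = 0.315), and IkbkbCA;P301S+ lay 4.26 points below Ikbkb+/+;P301S+, the reverse of its order among GABA nuclei. As a share of all nuclei kept, the members were 0.593% ± 0.152 in Ikbkb+/+ and 0.354% ± 0.119 in Ikbkb+/+;P301S+ (exact permutation p = 0.143, adjusted p = 0.267, n = 4 and 3). The rule counts fixed numbers of UMIs and so depends on depth. The median UMIs per member were 7281 ± 857, 6441 ± 720, 9556 ± 1287 and 8168 ± 1112 (SD) in the 4 groups in the same order. Depth was lowest in the group with the lowest mean share, but Ikbkb+/+, with the highest mean share of GABA nuclei, was not the deepest. Nuclei with 3000 or more UMIs were then thinned to 3000 before the rule, and shallower nuclei were left out of both the members and the whole. In this setting 146 nuclei were members and the difference between Ikbkb+/+;P301S+ and Ikbkb+/+ was -0.97 points (exact permutation p = 0.371, n = 3 and 4). The knockout difference was then 0.355 points of GABA nuclei (exact permutation p = 0.5, n = 2 and 3), and the Ikbkb-/-;P301S+ mice (0.819% and 2.03%) overlapped the Ikbkb+/+;P301S+ mice (0.616% to 1.41%), so that their separation was lost. Of all nuclei with 3000 or more UMIs the thinned knockout difference was 0.00559 points, against 0.259 points of all nuclei kept without thinning. For active IKKβ and all tau the thinned differences were 0.50 and -0.73 points of GABA nuclei (exact permutation p = 0.2 and 0.23). The thinned IkbkbCA;P301S+ mice (1.55% and 1.59%) lay above the Ikbkb+/+;P301S+ mice. With 5 or more UMIs of Vip required, the P301S and knockout differences were -0.79 and 1.02 points (exact permutation p = 0.286 and 0.1). Those for active IKKβ and all tau were then 0.48 and -0.36 points (exact permutation p = 0.2 and 0.394). The Ikbkb-/-;P301S+ (1.72% and 1.75%) and IkbkbCA;P301S+ mice (1.18% and 1.21%) then lay above Ikbkb+/+;P301S+ (0.371% to 1.02%).

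**Figure D4:**
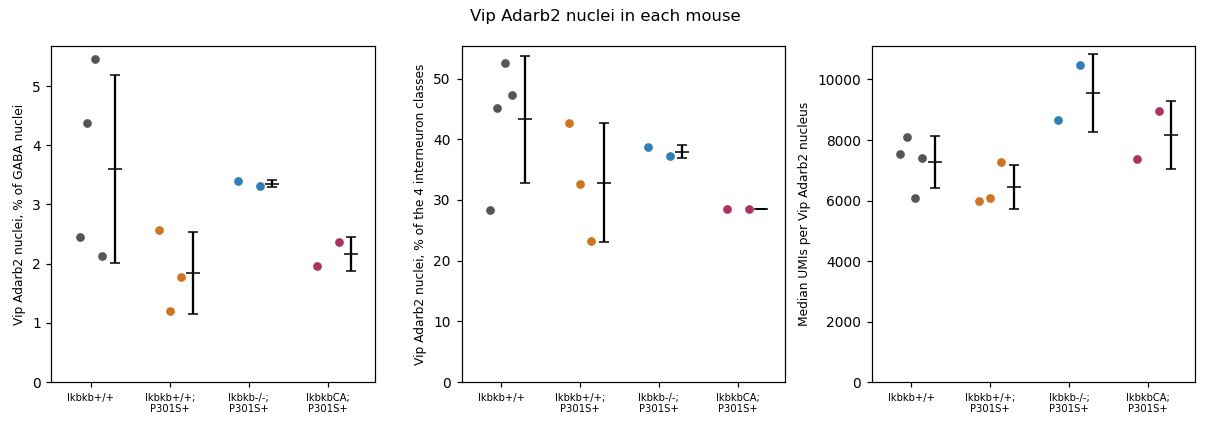
Each point is 1 mouse, by genotype group on the horizontal axis, with the share of Vip Adarb2 nuclei and their depth in UMIs on the vertical axes and the group mean and SD drawn. The Ikbkb+/+ mice spread from 2.13% to 5.46% of GABA nuclei and the Ikbkb+/+;P301S+ mice from 1.19% to 2.57%.

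Whether tau and microglial IKKβ changed gene expression in the members was tested on counts summed per mouse, with 1 term per genotype in a fit to all 11 mice. A gene was called at an adjusted p under 0.05 and a log2 difference over 0.1, the limits of the study. In each of the 4 comparisons 0 of 6451 genes were called (0%, edgeR's quasi-likelihood test). The comparisons were Ikbkb+/+;P301S+ minus Ikbkb+/+, Ikbkb-/-;P301S+ minus Ikbkb+/+;P301S+, IkbkbCA;P301S+ minus Ikbkb+/+;P301S+, and the 3 P301S+ genotypes minus Ikbkb+/+, and those that share a group are not independent. The counts at an unadjusted p under 0.05 were 288, 317, 339 and 231, and DESeq2 called 0 with 169, 195, 221 and 116. The smallest adjusted p-values were 0.595, 0.252, 0.347 and 0.71 (edgeR). The median half-width of a gene's 95% interval was 0.59, 0.66, 0.71 and 0.45 on the log2 scale, before any adjustment for the number of genes.

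The 4 genes of lowest p in each comparison are given although none passed. For Ikbkb+/+;P301S+ minus Ikbkb+/+, Sdhb, a subunit of succinate dehydrogenase, stood at 26.9, 19.0, 14.6 and 17.8 CPM without and 57.8, 101 and 42.1 CPM with P301S. The groups did not overlap, and the difference was 1.69 ± 0.36 (SE) on the log2 scale (adjusted p = 0.595, edgeR). Unc5c, a netrin receptor, stood at 513, 352, 349 and 410 CPM without P301S, at 316, 191 and 217 CPM in Ikbkb+/+;P301S+, at 264 and 300 CPM in Ikbkb-/-;P301S+ and at 213 and 274 CPM in IkbkbCA;P301S+. All 7 tau mice lay below all 4 others, by -0.64 ± 0.14 on the log2 scale (adjusted p = 0.71, edgeR). Unc5c was also lower in the other GABA nuclei, at 420 ± 45.9 CPM (SD) in the tau mice against 642 ± 95.2 CPM in Ikbkb+/+. The transcription factors Trps1 and Tshz2 differed by -1.19 ± 0.28 and 1.78 ± 0.44 in the first comparison, and Tshz2 overlapped between groups. Dnal1, an axonemal dynein light chain, differed by 0.84 ± 0.22 and Acsl3, a fatty acid-activating enzyme, by -0.92 ± 0.24 over all tau mice.

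In the knockout comparison Ctnna3, an α-catenin of cell junctions, stood at 130 and 101.9 CPM in Ikbkb-/-;P301S+ and 239, 219 and 243 CPM in Ikbkb+/+;P301S+, and did not overlap. It differed by -1.01 ± 0.20 (adjusted p = 0.252, edgeR), with 176 to 235 CPM in the Ikbkb+/+ mice. Crh stood at 11.9 and 19.99 CPM against 30.3, 61.9 and 71.2 CPM, a difference of -1.73 ± 0.45 (adjusted p = 0.643, edgeR), and at 105 and 51.6 CPM in IkbkbCA;P301S+. Crh counts came to 7 and 10 UMIs against 11, 11 and 22. Atp5o (ENSMUSG00000116933), a subunit of the mitochondrial ATP synthase, differed by -1.55 ± 0.37, and Mertk, a phagocytic receptor of astrocytes and microglia, by 4.04 ± 1.06, with 10 and 36 UMIs against 1, 0 and 1. Astrocyte markers moved with Mertk, at 382 and 906 CPM against 313 to 326 CPM, and without members rich in glial markers 0 genes were called as well.

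In the active IKKβ comparison Kit, the receptor of stem cell factor, stood at 327 and 260 CPM in IkbkbCA;P301S+ and 157, 135 and 133 CPM in Ikbkb+/+;P301S+. The groups did not overlap, and the difference was 1.03 ± 0.21 (adjusted p = 0.347, edgeR), while the Ikbkb+/+ mice held 161 to 217 CPM. Pbx3, a homeobox transcription factor, differed by -1.03 ± 0.23, Hs6st3, a heparan sulfate sulfotransferase, by 0.80 ± 0.19, and Lrmda, a melanocyte differentiation gene, by 2.07 ± 0.52. Oligodendrocyte markers also differed between these groups, at 310 and 363 CPM against 148, 112 and 247 CPM. Microglia markers did not overlap either, at 67.5 and 33.2 CPM against 29.6, 11.2 and 27.5 CPM. The part of RNA from either cell type in these values was not tested.

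Listed genes gave 0 calls in every comparison. Mapt, the mouse tau gene, stood at 486 ± 46.3 CPM (SD, n = 4) without and 526 ± 32.4 CPM (n = 3) with P301S, a difference of 0.11 with a 95% interval of -0.16 to 0.38. Ikbkb in members stood at 43.6 ± 10.5, 51.5 ± 14.7, 44.2 ± 2.56 and 48.0 ± 8.49 CPM in Ikbkb+/+, Ikbkb+/+;P301S+, Ikbkb-/-;P301S+ and IkbkbCA;P301S+, and its range overlapped in every comparison. For the knockout comparison its difference was -0.15 with a 95% interval of -0.80 to 0.50. Prox1 differed by 0.12 (-0.20 to 0.45) and Igf1 by -0.17 (-0.59 to 0.25) between Ikbkb+/+;P301S+ and Ikbkb+/+. Among 9 NF-κB genes tested 0 had an unadjusted p under 0.05 in any comparison, with medians of 0.03, -0.11, -0.06 and -0.01, where all genes had -0.01, -0.01, 0.00 and -0.02.

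By list, the counts at an unadjusted p under 0.05 are given in the same order of comparisons, where all genes tested had 4.46%, 4.91%, 5.26% and 3.58%. Some genes are shared between lists, so these counts are not separate. Of 12 activity-induced genes they were 0, 2, 2 and 3 (medians 0.33, -0.45, -0.28 and -0.13), of 11 neuropeptides 1, 2, 0 and 4 (0.23, -0.05, -0.10 and 0.08), and of 24 Vip subtype markers 3, 6, 4 and 2 (0.07, -0.05, 0.02 and 0.02). Glutamate receptors had 3, 3, 1 and 0 of 22, potassium channels 0, 2, 0 and 1 of 26, presynaptic genes 3, 1, 1 and 3 of 24, GABA receptors 2, 2, 1 and 0 of 12, and acetylcholine and serotonin receptors 0, 1, 1 and 1 of 10. Tau-related genes had 2, 0, 0 and 2 of 19, neuropeptide receptors 0, 0, 1 and 1 of 8, caudal factors 1, 0, 0 and 1 of 15, medial markers 1, 0, 0 and 1 of 7, and GABA synthesis and transport 0, 1, 0 and 0 of 8. Chaperones and the 1 interferon gene had 0 in each. Astrocyte markers, 3 tested, had 3, 2, 0 and 2, with medians of -2.01, 1.962, 0.13 and -1.08, and oligodendrocyte markers, 3 tested, had 0, 0, 2 and 0, with a median of 1.02 for active IKKβ. Striatal markers, 2 tested, had 2, 0, 0 and 2, excitatory markers, 5 tested, had 1, 2, 1 and 2, and olfactory or subpallial markers, 4 tested, had 0 in each. The part of RNA from other cell types in these values was not tested.

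**Figure D5:**
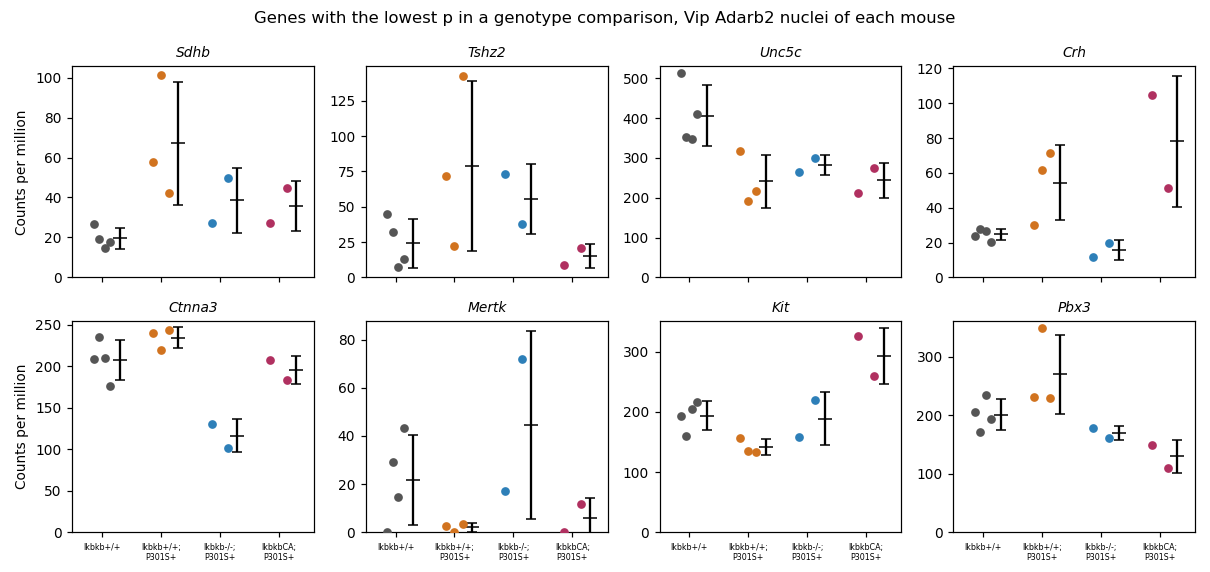
CPM in the summed Vip Adarb2 nuclei of each mouse for 8 genes of lowest p in a genotype comparison, one panel per gene, with points as mice by genotype group and bars as mean and SD. For Kit both IkbkbCA;P301S+ mice (327 and 260 CPM) lie above all 9 other mice, and none of these genes passed the adjusted threshold.

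Finally, the difference between genotypes in the members was set against that in the other GABA nuclei of the same mice, which tests the difference of the differences (edgeR, mouse as a block, 15782 genes). For the 4 comparisons 11 genes (0.0697%), 5 (0.0317%), 9 (0.057%) and 16 (0.101%) passed. The difference of differences was positive for 5 and negative for 6 genes for P301S, for 4 and 1 for the knockout, for 3 and 6 for active IKKβ, and for 4 and 12 for all tau. In this fit edgeR estimated infinite prior degrees of freedom, so that its p-values came from a chi-square rather than an F distribution, whereas the genotype fit within members had 7 residual and 18.8 prior degrees of freedom. A given ratio of the difference to its SE therefore gives a smaller p here than within members. With the same statistics referred to the degrees of freedom of the genotype fit, 1 gene passed for P301S and 1 for the knockout (both Gpc5), 1 for active IKKβ (Tshz2) and 0 for all tau. Leaving out any 1 of the 11 mice kept 1 of the 11 named genes called every time for P301S (Gpc5), 0 of 5 for the knockout, 1 of 8 for active IKKβ (Kit) and 0 of 12 for all tau.

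Kit was called in all 11 fits without 1 mouse. In other GABA nuclei it stood at 30.6 and 31.1 CPM in IkbkbCA;P301S+ and at 37.1, 32.6 and 43.4 CPM in Ikbkb+/+;P301S+, against the higher levels in members given above, and the difference of differences was 1.34 ± 0.24 on the log2 scale (adjusted p = 0.000155, edgeR). It was 1.45 without marked doublets (adjusted p = 7.35e-05, edgeR), 1.39 without members rich in glial markers and 1.18 to 1.52 leaving out 1 mouse. It did not pass with the degrees of freedom of the genotype fit (adjusted p = 0.0538, edgeR). Pde3a, a cAMP phosphodiesterase, stood at 80.9 and 141 CPM against 55.0, 45.0 and 42.1 CPM in the same comparison and did not overlap, with 19.8 and 18.7 against 32.7, 32.1 and 21.6 CPM in other GABA nuclei, a difference of 1.80 ± 0.35 (adjusted p = 0.00118, edgeR). It was called in 10 of 11 fits without 1 mouse and did not pass with the degrees of freedom of the genotype fit (adjusted p = 0.113, edgeR). Tshz2 stood at 8.99 and 21.1 CPM in members of IkbkbCA;P301S+ and at 71.5, 22.5 and 142 CPM in those of Ikbkb+/+;P301S+, a difference within members of -2.41 on the log2 scale against 0.44 in other GABA nuclei. The groups did not overlap in members, by a narrow margin, and the difference of differences was -3.01 ± 0.41 (adjusted p = 5.59e-09, and 0.00165 with the degrees of freedom of the genotype fit, edgeR). In other GABA nuclei IkbkbCA;P301S+ replicate 2 alone held 319 CPM, where the other 10 mice held 70.8 to 181 CPM.

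Sdhb stood at 35.0 to 44.5 CPM in other GABA nuclei of all 11 mice, with a difference of differences of 1.70 ± 0.35 (adjusted p = 0.00564, edgeR) and 1.85 without doublets. It passed neither with the degrees of freedom of the genotype fit (adjusted p = 0.216, edgeR) nor within members. Grm8 differed by -0.74 ± 0.17 for P301S and by 1.005 ± 0.20 for the knockout, comparisons that share the Ikbkb+/+;P301S+ mice, in which it stood at 1010, 878 and 596 CPM. It stood at 1334, 946, 1154 and 948 CPM in Ikbkb+/+ and at 1142 and 1607 CPM in Ikbkb-/-;P301S+, so that the groups overlapped for P301S and did not for the knockout. Leaving out 1 mouse gave -1.03 to -0.42 for P301S and 0.69 to 1.29 for the knockout, with the call kept in 9 of 11 fits each. For P301S it was lost without Ikbkb+/+ replicate 3 or Ikbkb+/+;P301S+ replicate 3, and for the knockout without Ikbkb+/+;P301S+ replicate 3 or Ikbkb-/-;P301S+ replicate 2. Neither passed with the degrees of freedom of the genotype fit (adjusted p = 0.246 and 0.228, edgeR).

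Several of the other named genes are known from astrocytes. Gpc5, a glypican abundant in astrocytes, had 14, 178, 17 and 130 UMIs in Ikbkb+/+, 21, 8 and 8 in Ikbkb+/+;P301S+, 48 and 222 in Ikbkb-/-;P301S+ and 12 and 27 in IkbkbCA;P301S+. The libraries with 178, 130 and 222 UMIs are the 3 with high astrocyte markers, a list that holds Gpc5 itself. Its difference of -1.82 ± 0.27 for P301S (adjusted p = 1.84e-07, edgeR) was -0.08 without members rich in glial markers (adjusted p = 1, edgeR). Mertk and Slc1a3, also known from astrocytes, likewise lost their calls, and so did Gli3 for the knockout. Gpc5 and Slc1a3 are among the glial markers by which these members were chosen. The loss of their calls was thus in part fixed by that choice, and no conclusion is drawn from it. Without those members 7 of 11, 1 of 5, 7 of 8 and 7 of 12 named genes were still called, and without marked doublets 3, 1, 5 and 3.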

How the data were processed

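Frozen cortex of 11 mice was measured by droplet snRNA-seq, 1 library per mouse. Per the labels and the study's methods, the authors sorted DAPI-stained nuclei, sequenced 10x 3′ libraries and made the deposited UMI counts per gene and barcode with Cell Ranger 3.1.0 on mm10 with pre-mRNA. The counts were not normalised. From them, nuclei were selected by the limits in the report. Doublets were marked against simulated doublets and kept, then left out as an alternative. The study's own doublet and cell type calls were not used here. Counts were summed per mouse and class and fitted with edgeR 4.0.16 (TMM scaling, quasi-likelihood test, R 4.3.3), after a filter on low counts, with DESeq2 1.42.0 as an alternative. The prior degrees of freedom of the test against other GABA nuclei were estimated as infinite. Class and genotype fits were normalised separately, so the CPM of a gene differs slightly between them. The code was tested on simulated data. Shares were compared by exact permutation tests over mice. Members and gene lists were chosen with earlier results of these data known. Genes were named by rule: of those called against all 3 classes with 20 CPM or more in the higher class, the 20 higher and 10 lower whose smallest difference was largest, per genotype test the 8 largest rises and 8 largest falls called or, with under 4 calls, the 4 of lowest p, and members of the lists. Genes without a proper name were only counted, and a few results are not reported here. Vip and other coordinates came from the annotation and RefSeq. Each library is a separate mouse per the labels. Alternatives covered scaling, filters, thinning, doublets, breeding line, age, the replicate number and leaving out each mouse.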

Additional observations from a re-analysis of the deposited data

Results flagged for a closer look

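The tests of the genotype difference in members minus that in other GABA nuclei (edgeR, log2 scale) gave the genes named next. With the degrees of freedom of the genotype fit within members Gpc5 for P301S and the knockout and Tshz2 for active IKKβ passed, and the other differences given here did not. For P301S the differences were 2.70 for Cpa6, 2.51 for Npsr1, 1.70 for Sdhb, 1.60 for Tshz2, 0.92 for Pdzrn3, -3.59 for Mertk, -2.14 for Slc1a3, -1.82 for Gpc5, -1.29 for Rarb and -0.74 for Grm8. Without doublets Cpa6 and Npsr1 turned to -0.0805 and -0.65 and Tshz2 was 0.93, and none of the 3 was called (adjusted p = 1, edgeR). Tshz2 was 0.77 to 2.05 leaving out 1 mouse, and was not called without Ikbkb+/+;P301S+ replicate 3. Cpa6 had 18 of its UMIs in Ikbkb+/+;P301S+ replicate 3 and at most 5 in any other mouse.

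For the knockout they were 4.34 for Gli3, 3.64 for Mertk, 2.06 for Gpc5, 1.005 for Grm8 and -1.27 for mt-Atp6. Without doublets Gli3 was 0.61 and Mertk 1.56, without members rich in glial markers they were 0.79 and 1.12, and neither was called in either setting (adjusted p = 1, edgeR). Gpc5, itself one of these glial markers, was 0.70 without doublets and -0.27 without members rich in glial markers, and was called in neither setting. For mt-Atp6 the groups overlapped in members. It was called neither without doublets (adjusted p = 0.101, edgeR) nor without members rich in glial markers (adjusted p = 0.334, edgeR). For active IKKβ they were 1.80 for Pde3a, 1.34 for Kit, -3.15 for Npsr1, -3.01 for Tshz2, -1.60 for Ccnd2, -1.44 for Grik3, -1.09 for Sema5b and -1.03 for Cdh13. Npsr1 turned to 1.12 without doublets (adjusted p = 0.954, edgeR), was not called without members rich in glial markers (adjusted p = 0.0765, edgeR) and was called in 5 of 11 fits without 1 mouse. For all tau mice they were 1.03 for Manba, 0.83 for Pdzrn3, 0.80 for Col19a1, 0.65 for Fgf13, -4.68 for Prdm16, -4.51 for Abi3bp, -3.33 for Nox4, -1.96 for Mertk, -1.78 for Slc24a4, -1.53 for Slc1a3 and -1.09 for Rgs9. Prdm16 was -1.59 without doublets and -1.61 without members rich in glial markers and was called in neither setting, and Abi3bp was not called without doublets (adjusted p = 1, edgeR). Manba was called neither without doublets (adjusted p = 0.0873, edgeR) nor without members rich in glial markers (adjusted p = 0.0904, edgeR). Col19a1, Fgf13 and Rgs9 were not called without doublets (adjusted p = 0.0734, 0.0798 and 0.404, edgeR).

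Cpa6, Gli3, Prdm16, Abi3bp and Slc24a4 did not pass the filter on low counts in members and entered these tests through the other GABA nuclei, so they were not tested within members. Their values are fits to few counts and are no bounds. Gli3 had 6 and 17 UMIs in Ikbkb-/-;P301S+ against 1, 0 and 0 in Ikbkb+/+;P301S+. The groups overlapped in members for the other 4, with means over the tau mice and Ikbkb+/+ of 4.94 and 7.29 CPM for Prdm16.

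These comparisons share mice, so a gene that appears in several of them is not an independent repeat. A difference can arise in either set of nuclei. For all tau mice Fgf13 differed by 0.17 in members and by -0.50 in other GABA nuclei, and Col19a1 by 0.43 and -0.39. Slc1a3 differed by -1.55 and -0.11. For active IKKβ Ccnd2 differed by -0.94 and 0.72 and Sema5b by -0.55 and 0.58. The make-up of the GABA nuclei varied between mice, with 14% to 40.6% holding Drd1 or Drd2. Its part in these differences was not tested. The 3 libraries with high astrocyte markers, of which Gpc5 is one, held most UMIs of Gpc5 and Mertk in members. The part of astrocyte RNA in the other differences was not tested.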

How the results depend on the processing

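Depth and the number of mice limit what could be seen, since members gave 179182 to 703126 UMIs per mouse. The replicate block gave 0 calls in each genotype comparison, as did breeding line and age as covariates. The replicate numbers do not pair mice: correlations of deviations between mice of the same number were -0.0484 to 0.0699. The subtype tests were not run, because no mouse held enough nuclei of each subtype. The use of the 4 interneuron classes or of GABA nuclei without Drd1 or Drd2 as the whole, leaving out members rich in glial markers, and, in the tests against other GABA nuclei, leaving out mice and taking the degrees of freedom of the genotype fit were chosen after seeing the data. The cause of the changes given next was not tested.

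The share difference for active IKKβ was -4.26 points of the 4 classes, and without Ikbkb+/+;P301S+ replicate 2 it was -0.0173 points of GABA nuclei and -0.0296 points of all nuclei. Leaving out 1 mouse gave -2.25 to -1.14 points of GABA nuclei for P301S, 1.17 to 1.86 for the knockout, -0.0173 to 0.672 for active IKKβ and -1.73 to -0.62 for all tau. Of all nuclei these were -0.300 to -0.180, 0.201 to 0.319, -0.0296 to 0.0891 and -0.203 to -0.0984. Without the filter on low counts edgeR called 10, 12, 9 and 7 genes between genotypes. Leaving out doublets called 1 for the knockout, thinning called 1 for active IKKβ, and leaving out 1 mouse called 0 to 1. Class comparisons called 582, 591 and 945 genes, 1122, 1138 and 1993 without the filter, and 326, 337 and 443 after thinning. Genes higher than in all 3 classes were 239 without the filter and 47 after thinning, of which 42 were among the 108. Leaving out 1 mouse gave 568 to 594, 576 to 614 and 923 to 974 calls, with 102 to 113 higher and 67 to 76 lower than all 3.

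Against other GABA nuclei, the degrees of freedom of the genotype fit left 1, 1, 1 and 0 genes called. Leaving out doublets called 7, 2 and 5 genes for P301S, the knockout and all tau, and leaving out members rich in glial markers called 1 for the knockout and 10 for all tau. Leaving out 1 mouse gave 6 to 19 for P301S, 0 to 11 for the knockout, 7 to 20 for active IKKβ and 8 to 30 for all tau. The extremes were without Ikbkb+/+;P301S+ replicate 3 (6) and Ikbkb+/+ replicate 1 (19), without Ikbkb-/-;P301S+ replicate 2 (0) and Ikbkb+/+;P301S+ replicate 2 (11), without IkbkbCA;P301S+ replicate 1 (20), and without Ikbkb-/-;P301S+ replicate 1 (8) and IkbkbCA;P301S+ replicate 2 (30). Counts also moved for P301S without Ikbkb+/+ replicate 2 (7), for the knockout without Ikbkb+/+;P301S+ replicate 3 (1) and Ikbkb-/-;P301S+ replicate 1 (9), for active IKKβ without IkbkbCA;P301S+ replicate 2 (18), and for all tau without Ikbkb+/+ replicates 2 (10) and 4 (25). Without doublets the P301S differences turned to -0.0805 for Cpa6, 0.0756 for Gpc5, -0.65 for Npsr1 and 0.0755 for Slc1a3, and that of Npsr1 for active IKKβ to 1.12. Without members rich in glial markers Gpc5 turned to -0.27 for the knockout.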
